A study of Mus musculus with 10 samples.

Results

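Transcripts of the Nogo receptors, their co-receptors and the reticulon family were measured in whole mouse hearts after 8 weeks of forced treadmill training and in hearts of sedentary mice. The group holds 10 of the 56748 genes in the count tables: the receptors Rtn4r, Rtn4rl1 and Rtn4rl2, the co-receptors Lingo1 and Ngfr, and Omg, Rtn4, Rtn1, Rtn2 and Rtn3 on the ligand and reticulon side. Members were taken by name, with Ensembl identifiers matched to symbols through the GENCODE annotation. Rtn4r, the head of the list, was chosen by its counts in these same hearts, where it was already known to be lower after training, so its difference is described here without a test. The other 9 were chosen by family, with earlier results of these data known. The question put to the other members was whether any of them moved with it. Of the 10 members, 9 had enough counts to be compared.

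The animals were wild-type C57BL/6 mice, 8 weeks old on arrival. The 5 training mice ran at 15 m/min for 120 min per day on 5 days per week for 8 weeks, after a rest and a graded week of acclimatization. The 5 sedentary mice were of the same age and genotype and were not trained. Each library came from 1 whole heart, atria and atrial appendages included, so all cell types of the heart contributed RNA, and the same poly-A directional protocol and a shared sequencing pool served both groups.

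The Nogo receptor encoded by Rtn4r is a leucine-rich repeat protein that hangs on the outer face of the plasma membrane by a lipid anchor. In the nervous system it binds inhibitors of axon growth that sit in myelin, among them Nogo (the product of Rtn4), the myelin-associated glycoprotein and the oligodendrocyte myelin glycoprotein encoded by Omg, and it passes the signal to the GTPase RhoA through transmembrane partners such as Lingo1 and the neurotrophin receptor Ngfr. Reticulons are hairpin membrane proteins that bend the tubules of the endoplasmic reticulum (ER) in every cell, and Nogo is the reticulon that also reaches the cell surface.

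Rtn4r (ENSMUSG00000043811, chr16:17945241-17970272 on the plus strand of GRCm39) encodes a protein of 473 amino acids from 2 exons of its coding transcript. Lingo1 (ENSMUSG00000049556, chr9:56523065-56703752, minus strand) and Rtn4 (ENSMUSG00000020458, chr11:29642313-29694331, plus strand) are the other members on which the results turn. Rtn4 has several promoters. Its transcripts in the annotation encode proteins from 199 amino acids, the short muscle form known as Nogo-C that starts at a promoter inside the gene, to 1162 amino acids, the long form Nogo-A. The 250 bases before the start of Rtn4r (chr16:17944991-17945240), before the outermost start of Lingo1 (chr9:56703753-56704002, minus strand) and before the start of the Nogo-C transcript of Rtn4 (chr11:29668313-29668562) are shown because these are the genes with a described or tested difference and the gene whose transcript forms were compared. Capitals mark the CG pairs, and each line runs 5′ to 3′ on the strand of its gene.
Rtn4r: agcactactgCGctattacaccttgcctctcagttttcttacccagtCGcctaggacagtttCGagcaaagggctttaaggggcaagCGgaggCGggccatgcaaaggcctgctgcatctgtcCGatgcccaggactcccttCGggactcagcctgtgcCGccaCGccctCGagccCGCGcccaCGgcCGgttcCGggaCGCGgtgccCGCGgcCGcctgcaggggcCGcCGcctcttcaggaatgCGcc
Lingo1: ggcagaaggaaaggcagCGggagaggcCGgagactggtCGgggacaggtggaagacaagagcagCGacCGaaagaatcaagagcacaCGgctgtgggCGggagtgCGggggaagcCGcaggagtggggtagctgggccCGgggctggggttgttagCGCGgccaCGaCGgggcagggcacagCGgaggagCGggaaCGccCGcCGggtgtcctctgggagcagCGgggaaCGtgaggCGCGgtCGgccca
Rtn4, Nogo-C start: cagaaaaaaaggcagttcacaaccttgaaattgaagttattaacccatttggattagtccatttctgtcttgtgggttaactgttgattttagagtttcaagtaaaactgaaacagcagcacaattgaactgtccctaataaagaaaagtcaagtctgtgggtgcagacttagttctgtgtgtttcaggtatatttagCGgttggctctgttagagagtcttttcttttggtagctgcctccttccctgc

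The start of Rtn4r and the outermost start of Lingo1 both lie behind CG-rich sequence. That start of Lingo1 belongs to a transcript without a defined coding sequence. Of the transcripts in the deposited tables, the coding ones of Lingo1 start at chr9:56703422 or further inside the gene. The window of Rtn4r holds 23 CG pairs, more than 92.2% of the 21770 windows of the same length before protein-coding genes of GENCODE M39, and that of Lingo1 holds 24, more than 93.2%. The Nogo-C window holds 1 CG pair, and 8.02% of the windows hold fewer. A search of both strands for the E-box CACGTG, the cyclic AMP element TGACGTCA, the GC box GGGCGG, the TATA box TATAAA and the CCAAT box CCAAT found no match in the windows of Rtn4r and of Nogo-C, and 1 GC box in that of Lingo1. Over all windows, the E-box was present in 5.69%, the cyclic AMP element in 1.31%, the GC box in 29.9%, the TATA box in 12.5% and the CCAAT box in 36.1%. RefSeq places the start of Rtn4r further downstream than GENCODE, so its window depends on the annotation. The Lingo1 window lies on an exon of Gm31586, a non-coding gene of the opposite strand that is not in the count tables.

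Between 29461697 and 35945417 reads were counted on genes in the training libraries and between 35196993 and 39431030 in the sedentary libraries. Levels of single genes are given as CPM, the count of a gene scaled to a fixed library total, with library sizes corrected for composition by TMM factors. Of 15454 genes tested with edgeR's quasi-likelihood test, 1084 (7.01%) passed a Benjamini-Hochberg false discovery rate (FDR) below 0.1, with 425 higher and 659 lower in training hearts. The median log2 fold change of all tested genes was 0.00026. The hearts expressed cardiomyocyte markers throughout, with a summed level of 64774 to 68969 CPM in the training hearts and 68156 to 77618 CPM in the sedentary hearts. Of these 9 markers, 8 had log2 fold changes below 0, and 1 passed as lower, where 4.26% of all tested genes did. The 6 atrial markers, among them Nppa and Myl7, summed to 5053 to 7617 CPM in the training hearts and to 2789 to 6837 CPM in the sedentary hearts. Of the 6, 2 passed as higher after training, where 2.75% of all tested genes did.

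Rtn4r was at 2.92, 3.55, 4.07, 2.18 and 3.18 CPM in training hearts 1 to 5. It was at 6.73, 7.12, 8.09, 8.11 and 7.56 CPM in sedentary hearts 1 to 5. All 5 training hearts lay below all 5 sedentary hearts, with a wide gap between the highest training heart and the lowest sedentary heart. The training mean of 3.18 ± 0.707 CPM stood against a sedentary mean of 7.52 ± 0.603 CPM (SD, n = 5 each), and the log2 fold change was −1.24 with a standard error of 0.13. Groups without overlap were found in 5.06% of all tested genes, and in 2.94% with the training hearts lower, which is given beside Rtn4r as a description only. These CPM rest on 70 to 152 counts per training heart and 244 to 304 counts per sedentary heart, for which counting error alone is between 5.74% and 12.0% of the value. At most 1 read per heart was counted on the opposite strand, and no other gene of the count tables overlaps Rtn4r. Across 21 other settings, each heart left out included, the log2 fold change stayed between −1.34 and −1.13. As Rtn4r was chosen for its fall in these counts, this describes the values and tests nothing. In bulk tissue, fewer cells that express a gene and less RNA of it per cell cannot be told apart.

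None of the 3 tested genes on each side of Rtn4r on chromosome 16 passed as lower, where 4.26% of all tested genes did. Slc25a1, the mitochondrial citrate carrier, passed as higher, where 2.75% of all tested genes did. Its log2 fold change was 0.77 (standard error 0.20, FDR 0.0521, edgeR quasi-likelihood test, Benjamini-Hochberg). The groups overlapped, at 13.0 ± 4.82 CPM in training and 7.62 ± 0.913 CPM in sedentary hearts (SD, n = 5 each). Dgcr6 and Prodh, the proline dehydrogenase, had log2 fold changes of −0.031 and −0.074, and on the other side 4933432I09Rik had 0.29, the palmitoyltransferase gene Zdhhc8 0.019 and Ranbp1 0.11, with FDR between 0.485 and 0.881 in the same edgeR test with Benjamini-Hochberg adjustment.

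**Figure D1:**
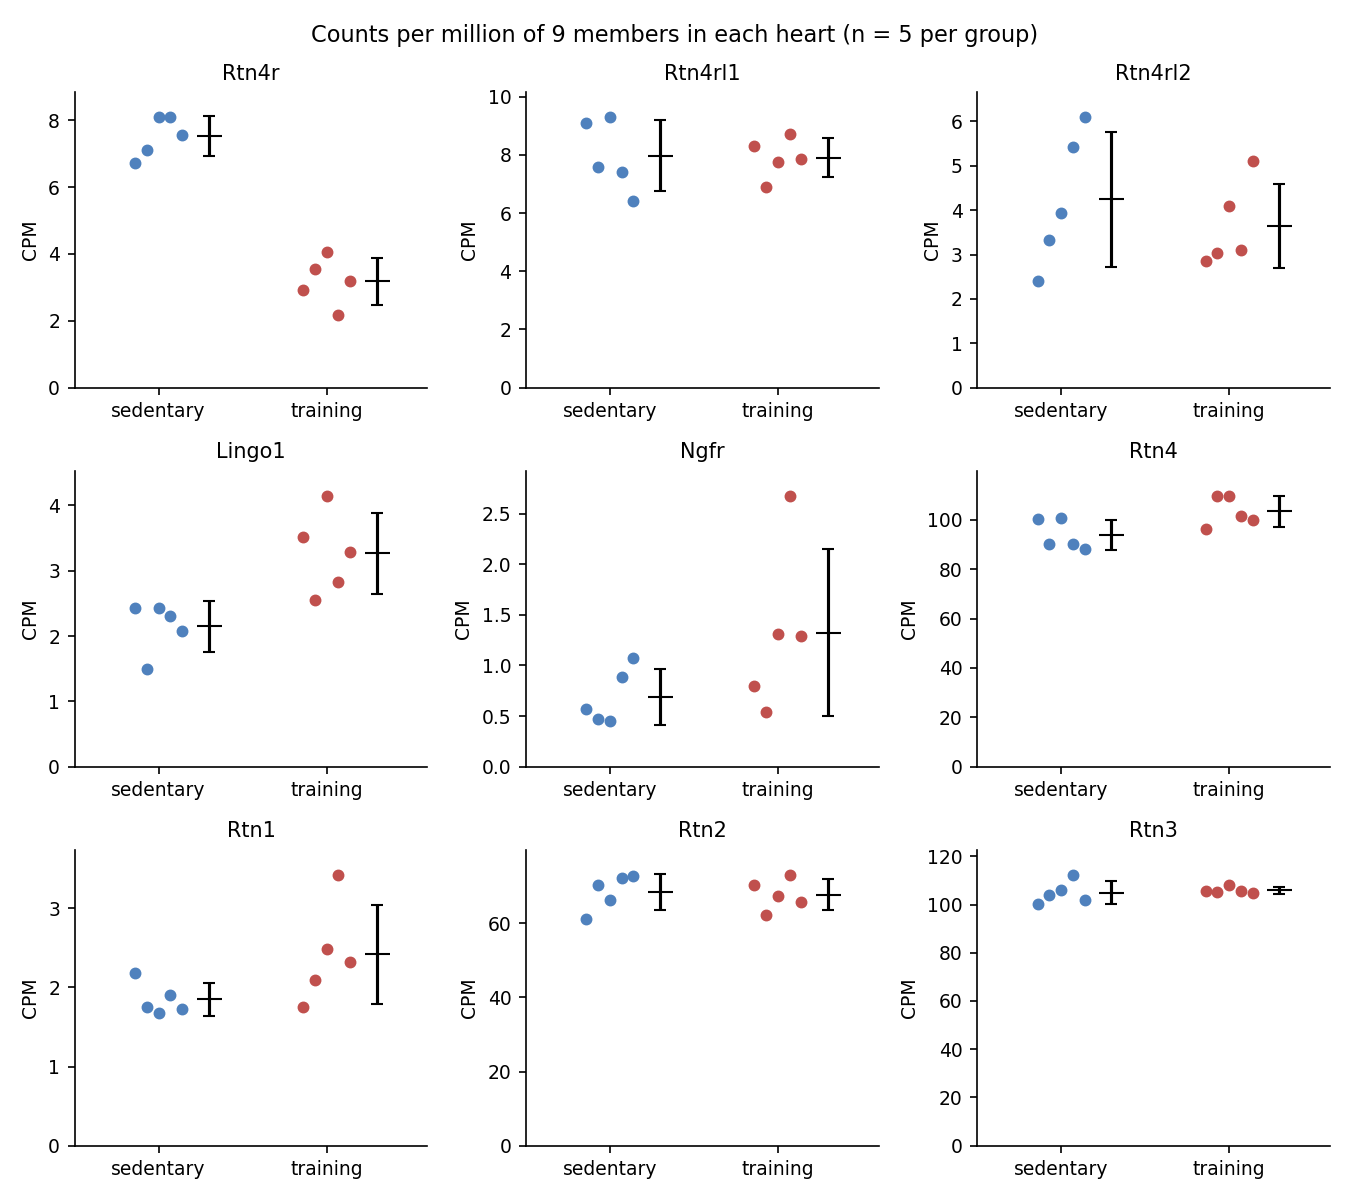
CPM (vertical axis, TMM-corrected, starting at 0) of 9 members in each heart, with sedentary hearts in blue and training hearts in red, hearts 1 to 5 from left to right in each group. The black mark is the mean with its SD (n = 5). The groups are apart in Rtn4r, where training hearts are lower, and in Lingo1, where they are higher, and they overlap in the other 7 members.

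Neither relative of Rtn4r passed the test. Rtn4rl1 (ENSMUSG00000045287, chr11:75084149-75160918, plus strand), also called NgR3, encodes a receptor that binds chondroitin sulfate proteoglycans. It was at 8.29, 6.90, 7.76, 8.72 and 7.86 CPM in training hearts 1 to 5 and at 9.09, 7.59, 9.32, 7.43 and 6.41 CPM in sedentary hearts 1 to 5. The training values lay inside the sedentary range, and the log2 fold change was −0.013 with a 95% confidence interval from −0.23 to 0.21 (FDR 0.96, edgeR quasi-likelihood test, Benjamini-Hochberg).

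Rtn4rl2 (ENSMUSG00000050896, chr2:84701645-84717388, minus strand), also called NgR2, encodes a receptor with high affinity for the myelin-associated glycoprotein. It was at 2.86, 3.04, 4.10, 3.11 and 5.11 CPM in training hearts 1 to 5 and at 2.41, 3.33, 3.94, 5.43 and 6.11 CPM in sedentary hearts 1 to 5. Sedentary hearts 4 and 5 were the highest of all, sedentary heart 1 was the lowest, and the groups overlapped widely. The log2 fold change of −0.22 had a 95% confidence interval from −0.72 to 0.28 (FDR 0.650, edgeR quasi-likelihood test, Benjamini-Hochberg), which leaves room for a fall of up to 0.72 on the log2 scale.

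The makeup of the 3 receptor transcripts differed between the groups along with Rtn4r. TPM are read counts divided by transcript length and scaled to a fixed total, and they allow genes to be compared within a heart. In TPM, Rtn4r made up 38.1% to 45.7% of the 3 receptors in sedentary hearts and 20.0% to 31.0% in training hearts. The summed level was 8.45 to 10.52 TPM in sedentary hearts and 6.26 to 8.72 TPM in training hearts. TPM carry no TMM correction, so these sums describe the hearts and give no measured difference between the groups. Rtn4r was the most abundant of the 3 in 4 of the 5 sedentary hearts and in none of the training hearts, where Rtn4rl2 led in 3 hearts and Rtn4rl1 in 2. These shares hold the gene that was chosen for its difference, so they describe the hearts and test nothing.

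**Figure D2:**
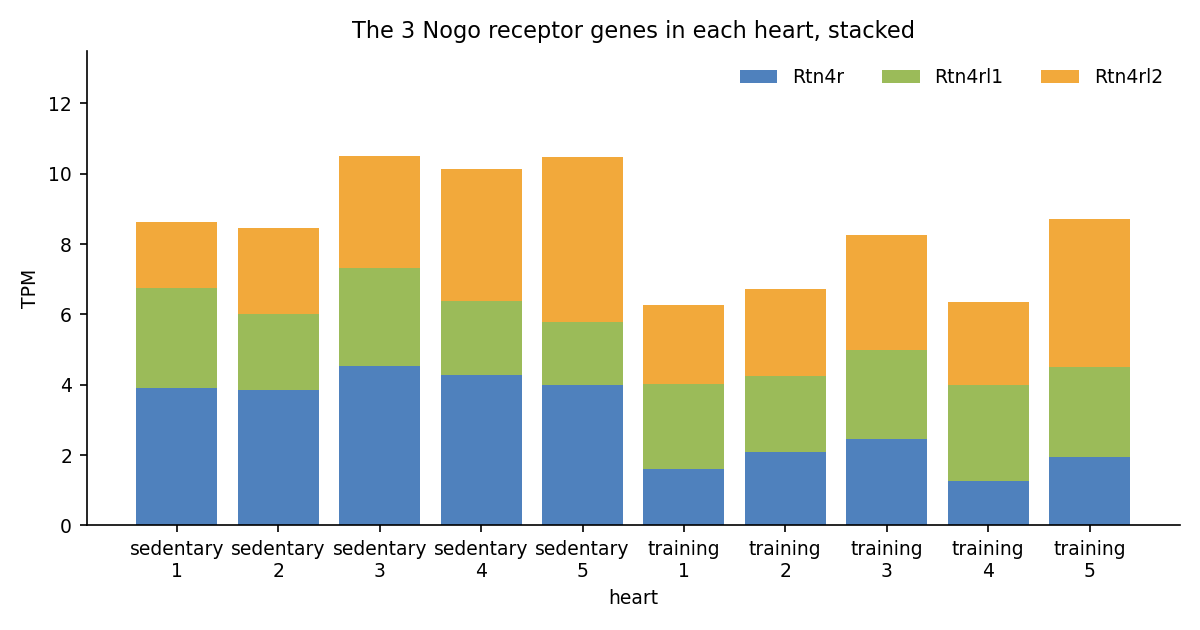
TPM (vertical axis) of Rtn4r in blue, Rtn4rl1 in green and Rtn4rl2 in orange, stacked for each of the 10 hearts (horizontal axis). The blue part is 3.86 to 4.54 TPM in the sedentary hearts and 1.27 to 2.46 TPM in the training hearts, while the green and orange parts overlap between the groups. TPM carry no TMM correction.

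The co-receptor Lingo1 moved the other way. Lingo1 encodes a transmembrane protein with leucine-rich repeats and an immunoglobulin domain that joins the Nogo receptor complex and restrains myelination. It was at 3.51, 2.55, 4.15, 2.83 and 3.28 CPM in training hearts 1 to 5 and at 2.43, 1.49, 2.42, 2.30 and 2.08 CPM in sedentary hearts 1 to 5. Every training heart lay above every sedentary heart, although training heart 2 and sedentary heart 1 nearly met. The means were 3.26 ± 0.621 and 2.15 ± 0.394 CPM (SD, n = 5 each), a log2 fold change of 0.60 (standard error 0.16, FDR 0.0541, edgeR quasi-likelihood test, Benjamini-Hochberg). Of the 8 tested members other than Rtn4r, Lingo1 alone passed, where 2.75% of all tested genes passed as higher. Non-overlapping groups with higher training hearts were found in 2.12% of all tested genes.

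Lingo1 rested on 51 to 155 counts per heart, and its call was narrow. It lost the call without training heart 3 (log2 fold change 0.50, FDR 0.136), without sedentary heart 2 (0.50, FDR 0.104) and without sedentary heart 5 (0.59, FDR 0.101), all by edgeR with Benjamini-Hochberg adjustment. The atrial markers were also higher on average after training. On a score of their mean log2 CPM, centred over the 10 hearts, sedentary hearts 2 and 5 were at −1.04 and −0.89, the other sedentary hearts between −0.20 and 0.36, and the training hearts between 0.060 and 0.71. Sedentary heart 2, which had the lowest atrial score, also had the lowest Lingo1 level, and training heart 3 the highest of each. Sedentary heart 1 and training heart 1 had close scores of 0.36 and 0.38, with Lingo1 at 2.43 and 3.51 CPM. With the score as a covariate, the log2 fold change of Lingo1 was 0.28 (standard error 0.17, FDR 0.570, edgeR quasi-likelihood test, Benjamini-Hochberg), and that of Rtn4r was −1.25 (standard error 0.17). In that fit 17 genes of all those tested passed as higher and 77 as lower. Since the score itself was higher on average after training, the fit cannot separate atrial content from training. The part of atrial content in the Lingo1 difference was not tested.

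Ngfr (ENSMUSG00000000120, chr11:95459638-95478561, minus strand) encodes the p75 neurotrophin receptor, found on neurons and Schwann cells. It was at 0.793, 0.544, 1.31, 2.68 and 1.29 CPM in training hearts 1 to 5 and at 0.571, 0.467, 0.452, 0.882 and 1.07 CPM in sedentary hearts 1 to 5. Training heart 4 was far above the rest, and the groups overlapped. The log2 fold change was 0.93 with a 95% confidence interval from 0.11 to 1.75 (FDR 0.194, edgeR quasi-likelihood test, Benjamini-Hochberg). Only 16 to 86 reads per heart stood behind these values, and without training heart 4 the log2 fold change was 0.51.

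Omg (ENSMUSG00000049612, chr11:79390592-79394915, minus strand), the ligand from oligodendrocytes, had a count of 0 in all 10 hearts. A count of 0 allows up to 3 counts, which is 0.0761 to 0.102 CPM in these libraries and covers counting error only. Omg lies within the gene Nf1, which runs on the opposite strand and had a mean of 1404 counts. The other myelin ligand, Mag, was close to the limit of detection at 0.0874 ± 0.0326 CPM in training hearts and 0.0855 ± 0.0527 CPM in sedentary hearts (SD, n = 5 each), too low to be tested.

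Markers of neurons, in which this receptor system is best known, were low in these hearts. The 10 neuron markers, such as Stmn2 and Dbh, summed to 8.76 to 16.7 CPM in training hearts and 7.03 to 11.0 CPM in sedentary hearts. Of these, 4 were tested, all with log2 fold changes above 0, and none passed by edgeR (1 at an unadjusted p below 0.05, 0 by DESeq2). Over all tested genes, 2.75% passed as higher and 4.26% as lower by edgeR, and DESeq2 called 617 higher and 856 lower among 15454. The share of all tested genes at an unadjusted p below 0.05 is not given here. No marker of the list was at 0 in all hearts. The sum was higher on average after training, with overlapping groups. Prph and Snap25 varied widely among the training hearts (0.836 ± 0.691 and 0.665 ± 0.625 CPM), Stmn2 and Dbh less (4.71 ± 0.913 and 4.54 ± 0.685 CPM, SD, n = 5). The sum had the direction of Lingo1 and Ngfr, opposite to that of Rtn4r, and its part in these results was not tested.

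The reticulons Rtn2, Rtn3 and Rtn4 were far more abundant than the receptors, while Rtn1 was below them by mean TPM. No reticulon passed the test between the groups. Rtn4, the gene of Nogo, was at 96.1, 109.8, 109.8, 101.3 and 99.8 CPM in training hearts 1 to 5. It was at 100.4, 90.2, 100.6, 90.0 and 88.2 CPM in sedentary hearts 1 to 5. Sedentary hearts 1 and 3 lay among the training hearts, and the other 3 sedentary hearts lay below all training hearts. The means were 103 ± 6.16 CPM and 93.9 ± 6.09 CPM (SD, n = 5 each), a log2 fold change of 0.14 with a 95% confidence interval from 0.025 to 0.25 (FDR 0.165, edgeR quasi-likelihood test, Benjamini-Hochberg). With the mean log2 CPM of 13 circadian clock genes as a covariate, it was 0.18 (standard error 0.042) and passed (FDR 0.0271, edgeR with Benjamini-Hochberg adjustment). Of the clock genes themselves, 5 were higher and 3 lower in training hearts, where 2.75% and 4.26% of all tested genes were, and their mean overlapped between the groups (−0.10 to 0.18 in training and −0.31 to 0.19 in sedentary hearts, centred over the 10 hearts). Since clock genes moved in both directions, this mean is no measure of clock phase.

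Rtn2 and Rtn3 had narrow intervals around 0. Rtn2 (ENSMUSG00000030401, chr7:19016505-19030178, plus strand), a reticulon of skeletal and heart muscle, was at 70.4, 62.2, 67.4, 73.1 and 65.6 CPM in training hearts 1 to 5 and at 61.2, 70.3, 66.2, 72.1 and 72.7 CPM in sedentary hearts 1 to 5. The groups covered the same range, and the log2 fold change was −0.015 with a 95% confidence interval from −0.14 to 0.11 (FDR 0.912, edgeR with Benjamini-Hochberg adjustment). Rtn3 (ENSMUSG00000024758, chr19:7403247-7460688, minus strand), which serves in selective degradation of ER tubules, was at 105.6, 105.1, 108.2, 105.5 and 104.7 CPM in training hearts 1 to 5 and at 100.3, 103.9, 106.0, 112.4 and 101.9 CPM in sedentary hearts 1 to 5. The training hearts were closely grouped inside the sedentary range, and the log2 fold change was 0.013 with a 95% confidence interval from −0.069 to 0.095 (FDR 0.891, edgeR with Benjamini-Hochberg adjustment).

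Besides Nf1 at Omg, genes on the opposite strand in the count tables overlap 3 members, Eml6 (mean 315 counts) at Rtn4, Zfta (898 counts) at Rtn3 and Gm26868 (0.2 counts) at Lingo1. Counts were taken by strand, and at most 68 reads per heart on the wrong strand were counted for any of the 3.

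Rtn1 (ENSMUSG00000021087, chr12:72258517-72455828, minus strand), a reticulon mainly of neurons and endocrine cells, was at 1.76, 2.09, 2.49, 3.42 and 2.32 CPM in training hearts 1 to 5 and at 2.19, 1.75, 1.68, 1.91 and 1.73 CPM in sedentary hearts 1 to 5. Training heart 4 stood above the rest, as it did for Ngfr, and the groups overlapped. The log2 fold change was 0.38 with a 95% confidence interval from 0.025 to 0.73 (FDR 0.220, edgeR with Benjamini-Hochberg adjustment). Without training heart 4 it was 0.22. Over the 9 members tested, 5 log2 fold changes were above 0 and 4 below, with a median of 0.013 against 0.00026 over all genes. The 4 below 0 hold Rtn4r, which was chosen for its fall, so this split and median are a description only. Of the 8 tested members other than Rtn4r, 0 were called lower, where 4.26% of all tested genes were. At an unadjusted p below 0.05 in edgeR, none of the 8 was lower and 4 were higher (Lingo1, Rtn4, Ngfr and Rtn1). The share of all tested genes at that unadjusted threshold is not given here. DESeq2 called Lingo1 higher and none of the 8 lower, where it called 617 higher and 856 lower among 15454 genes.

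**Figure D3:**
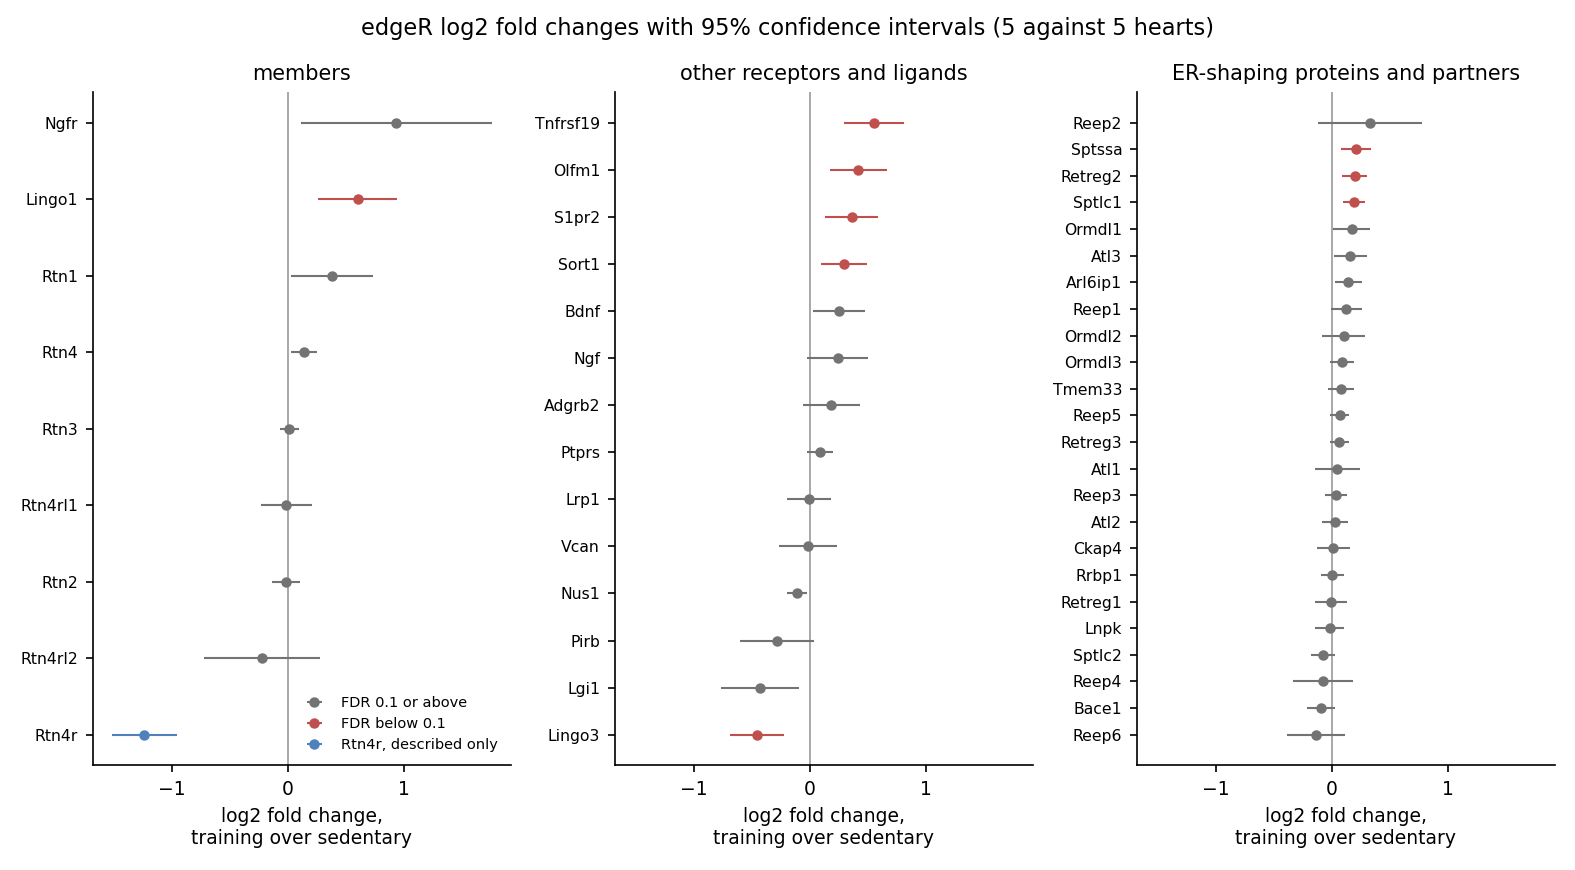
Log2 fold change of training over sedentary hearts (horizontal axis) with its 95% confidence interval from edgeR, for the 9 tested members, for 14 other receptors, co-receptors and ligands, and for 24 ER-shaping proteins and reticulon partners. Red marks genes at an FDR below 0.1, grey the others, and blue Rtn4r, which is described and not tested. Rtn4r lies at −1.24, farther from 0 than any other gene shown, and the next farthest is Ngfr at 0.93.

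The order of the members by level was compared on the TPM scale within hearts. In sedentary hearts Rtn2 was highest (67.9 ± 1.69 TPM), followed by Rtn3 (38.5 ± 1.62), Rtn4 (34.6 ± 3.33), Rtn4r (4.12 ± 0.284), Rtn4rl2 (3.19 ± 1.10), Rtn4rl1 (2.33 ± 0.454), Lingo1 (0.88 ± 0.15), Rtn1 (0.818 ± 0.172) and Ngfr (0.204 ± 0.0783), each a mean TPM with its SD over 5 hearts. Ranges over the sedentary hearts overlapped between Rtn3 and Rtn4, between Rtn4r and Rtn4rl2, between Rtn4rl2 and Rtn4rl1, and between Lingo1 and Rtn1, while the other neighbours were apart. In training hearts Rtn2 was again highest at 71.5 ± 4.12 TPM, and Rtn4 and Rtn3 followed at 42.2 ± 3.20 and 41.3 ± 1.85 TPM without being apart. Rtn4r stood at rank 4 of the 10 members in sedentary hearts and at rank 6 in training hearts, at 1.87 ± 0.457 TPM, behind Rtn4rl2 (2.92 ± 0.837 TPM) and Rtn4rl1 (2.48 ± 0.200 TPM), whose ranges it overlapped.

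**Figure D4:**
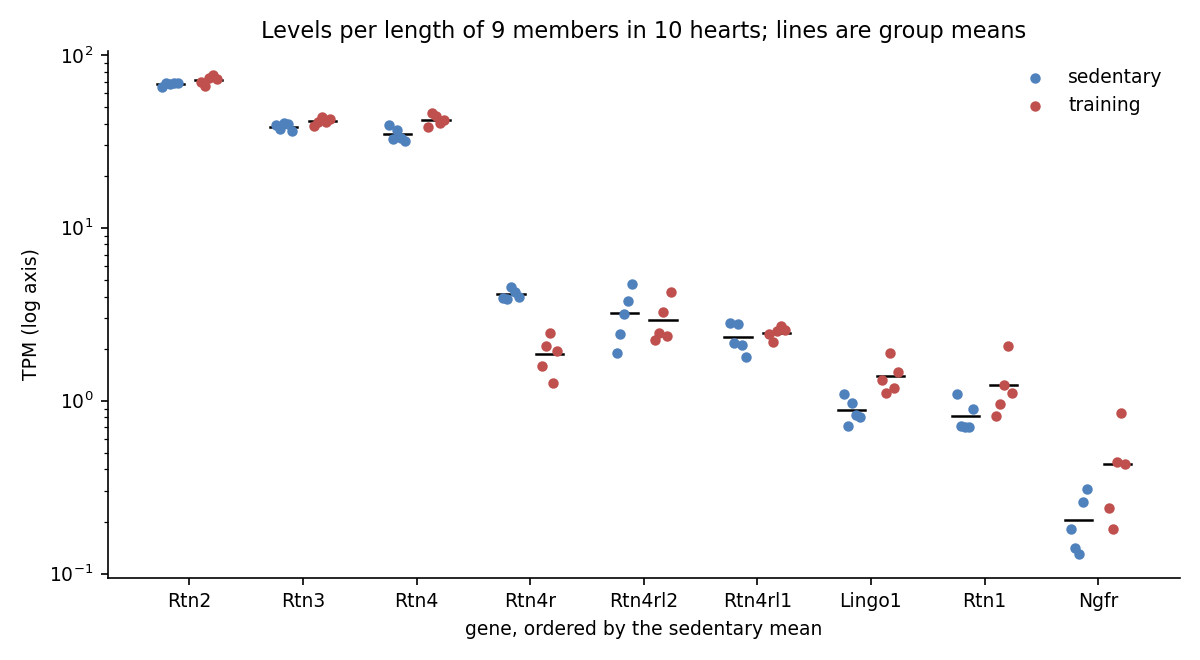
TPM (log axis) of 9 members in each sedentary (blue) and training (red) heart, ordered by the sedentary mean, with group means as black lines. Omg, listed at 0 in every heart, is not drawn. Rtn2, Rtn3 and Rtn4 lie between 31.6 and 76.7 TPM, and the other members at or below 4.70 TPM.

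The forms of the Rtn4 transcript were followed through the transcript length that RSEM assigns to a gene, a mean over its isoforms weighted by their estimated shares. For Rtn4 it was 2587, 2615, 2804, 2729 and 2712 bases in training hearts 1 to 5 and 2778, 2807, 2898, 2720 and 2794 bases in sedentary hearts 1 to 5. Training hearts 1, 2 and 5 had a shorter Rtn4 length than any sedentary heart, and the other 2 lay within the sedentary range. The means of 2690 ± 88.3 and 2800 ± 64.4 bases (SD, n = 5 each) differed by −0.058 on the log2 scale (standard error 0.025), which did not pass in limma over 10939 genes (FDR 0.449, Benjamini-Hochberg adjustment) nor in an exact two-sided permutation test (p = 0.0794, where 0.00794 is the smallest possible). The lengths of Rtn1, Rtn2, Rtn3, Lingo1 and Rtn4rl2 had FDR between 0.778 and 0.987 in limma with Benjamini-Hochberg adjustment. None of these 6 members was called, where 0.0274% of all lengths tested passed. At an unadjusted p below 0.05 in limma there was 1 of the 6 (Rtn4), and 1189 of the 10939 lengths tested. Rtn4r, Rtn4rl1, Ngfr and Omg have a sole transcript in the deposited tables, so no difference in length could appear.

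Around the members, a hand-written list of 20 other receptors, co-receptors and ligands of the system had 14 tested genes. Of these, 4 were higher and 1 was lower at an FDR below 0.1, where 2.75% and 4.26% of all tested genes were. Their median log2 fold change was 0.14. Tnfrsf19 (TROY), which can take the place of Ngfr as a partner of the Nogo receptor, rose from 2.84 ± 0.269 to 4.18 ± 0.665 CPM (SD, n = 5 each) without overlap between the groups, a log2 fold change of 0.55 (standard error 0.12, FDR 0.0299, edgeR quasi-likelihood test, Benjamini-Hochberg). S1pr2, the sphingosine-1-phosphate receptor that binds another stretch of Nogo, rose by a log2 fold change of 0.36 (standard error 0.11, FDR 0.0788, same edgeR test with Benjamini-Hochberg adjustment), with overlapping groups. Olfm1, a secreted olfactomedin that binds the Nogo receptor, rose by 0.42 (FDR 0.0607), and the Ngfr partner Sort1 rose by 0.30 (FDR 0.0938), on the log2 scale in the same edgeR test with Benjamini-Hochberg adjustment.

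The lower gene was Lingo3, a relative of Lingo1, which fell from 13.1 ± 2.11 to 9.53 ± 1.01 CPM (SD, n = 5 each), a log2 fold change of −0.45 (standard error 0.11, FDR 0.0402, edgeR quasi-likelihood test, Benjamini-Hochberg). Lingo1 and Lingo3 thus had calls in opposite directions. Nus1, the Nogo-B receptor, was at 67.0 ± 1.08 CPM in training and 72.3 ± 3.50 CPM in sedentary hearts, a log2 fold change of −0.11 that did not pass (FDR 0.153, edgeR with Benjamini-Hochberg adjustment). Tnfrsf19 kept its call in all 10 fits that left out 1 heart and Lingo3 in 9, against 5 for Olfm1, 3 for Sort1 and 2 for S1pr2. None of the 5 passed with the atrial score as a covariate (FDR from 0.200 for Tnfrsf19 to 0.817 for Sort1, edgeR with Benjamini-Hochberg adjustment).

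Rhoa, the GTPase at the end of the pathway, was at 183 ± 9.54 CPM in training and 177 ± 9.91 CPM in sedentary hearts, with a log2 fold change of 0.050 (95% confidence interval −0.055 to 0.15, FDR 0.622, edgeR with Benjamini-Hochberg adjustment).

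Of 24 ER-shaping proteins and reticulon partners, all tested, 3 were higher and none was lower by edgeR, and the same numbers came from DESeq2. Over all tested genes, 2.75% were higher and 4.26% lower by edgeR, and 7738 of 15454 log2 fold changes were above 0. DESeq2 called 617 higher and 856 lower among the same 15454 genes. At an unadjusted p below 0.05 in edgeR, 6 of the 24 were higher and 0 lower. The share of all tested genes at that unadjusted threshold is not given here, so these counts have no background beside them. Log2 fold changes were above 0 in 18 of the 24, and the median was 0.066. The 3 were Retreg2, an ER-phagy regulator with a reticulon domain (log2 fold change 0.19, FDR 0.0482), and Sptlc1 (0.19, FDR 0.0406) and Sptssa (0.21, FDR 0.0716), the core and the small subunit of serine palmitoyltransferase, all by edgeR with Benjamini-Hochberg adjustment and each without overlap between the groups. Sptlc1 kept its call in all 10 fits that left out 1 heart, Retreg2 in 7 and Sptssa in 4, and none of the 3 passed with the atrial score as a covariate. Atl3, an atlastin that fuses ER tubules, had a log2 fold change of 0.16 (FDR 0.203), and Reep5, a curvature protein abundant in heart muscle, had 0.068 (FDR 0.332), in edgeR with Benjamini-Hochberg adjustment.

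The genes most like Rtn4r and Rtn4 from heart to heart were sought among the 13116 genes whose mean reached 1 CPM, by Pearson's r of log2 CPM after each group's mean was removed, which takes out the difference between groups. Over the 10 hearts Rtn4r was closest to Rrs1 (r = 0.92), Lmnb1 (0.92), Pitpna (0.92), Hnrnpab (0.90) and Eef1e1 (0.90). Rtn4 was closest to Pigv (r = 0.98), the complement genes C1qa (0.97) and C1qb (0.97), Serpina3n (0.96) and Tgfbr2 (0.95). All 10 are the highest of 13116 such r over the same libraries and are given as a description. None of the 10 genes differed between the groups in edgeR at an FDR below 0.1, and their log2 fold changes do not follow that of Rtn4r, with −0.13 for Rrs1, 0.14 for Lmnb1, −0.0098 for Pitpna, 0.027 for Hnrnpab and −0.11 for Eef1e1.

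**Figure D5:**
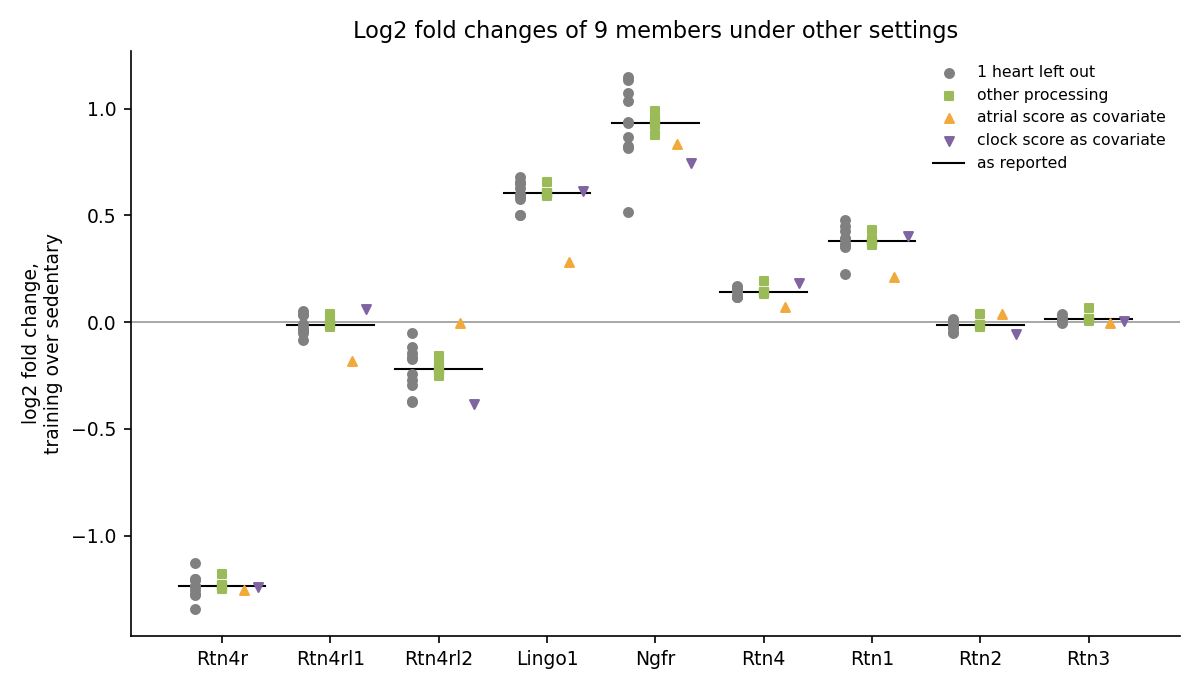
Log2 fold change (vertical axis) of 9 members as reported (black line) and under other settings: 1 heart left out (grey), other counts, filters, scalings and tests (green), the atrial score (orange) or the clock score (purple) as a covariate. Rtn4r stays between −1.34 and −1.13, and Lingo1 stays above 0 with its lowest value, 0.28, under the atrial score.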

How the data were processed

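RNA sequencing of 10 whole hearts was analysed, with each heart's group and mouse number taken from its label. Per heart, a STAR 2.7.10a table on GRCm39 was deposited with the count of uniquely mapped reads on each gene, by strand and without normalization or filter. They also deposited RSEM 1.3.3 gene tables with expected counts, TPM and FPKM (both scaled by the authors per length and library) and isoform-weighted transcript lengths in bases, for which the strand setting is not given in the sources used here. The reverse-strand count, 94.9% to 95.6% of the stranded counts, was used; multimapping reads (17.9% to 19.2% of reads) and reads on no gene (4.15% to 4.89%) stayed out of library sizes. Symbols came from GENCODE M39 for 56017 of 56748 identifiers, and this annotation is not the authors' Ensembl release, so transcript sets differ. The 250-base windows were read from GRCm39.

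The comparison of groups used edgeR 4.0.16 under R 4.3.3 (filterByExpr, TMM, quasi-likelihood F test, Benjamini-Hochberg over all tested genes, FDR below 0.1). Log2 transcript lengths were compared with limma 3.58.1 (robust eBayes) over genes with a mean of at least 1 TPM and a varying length, and by exact two-sided permutation over 252 assignments of the hearts. TPM levels were ordered without a test and carry no TMM correction, so they are compared within hearts. Scores are mean log2 CPM with a prior count of 2. Alternatives were DESeq2 1.42.0, its size factors, library totals alone, other filters, RSEM expected counts rounded to whole numbers, counts of both strands, the mouse number as a block, an FDR below 0.05, atrial or clock scores as covariates, FPKM or counts per kilobase for levels, and leaving out each heart. Scripts were tested on simulated data. Mouse numbers were not used as pairs, as the labels give no shared litter or day and same-numbered hearts did not all deviate together.

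The text names all members, pathway genes past the FDR and S1pr2, Nus1, Tnfrsf19, Mag, Atl3, Reep5 and Rhoa, the 3 tested genes on each side of Rtn4r, genes that overlap members, and the 5 genes most like Rtn4r and Rtn4 by r. Members, lists and covariates were chosen with earlier results of these data known. Each library is a separate mouse. The other marker lists (fibroblast, endothelium, mural cell, macrophage and dendritic cell) had 6, 6, 6 and 7 tested genes. They had 1, 0, 0 and 0 higher and 0, 1, 1 and 0 lower calls, where 2.75% and 4.26% of all tested genes were called. Their median log2 fold changes were 0.16, −0.088, −0.052 and −0.0049, and their part in the members' results was not tested. Results of 1 pathway list and 1 marker list are not reported here.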

Additional observations from a re-analysis of the deposited data

Results flagged for a closer look

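3 values of 48 gene and group series examined stood far from the other hearts of their group, with a gap to the nearest heart that took up most of the group's range. Chance flags about 1 in 20 such groups. Rtn3 was at 108.2 CPM in training heart 3 and between 104.7 and 105.6 CPM in the other 4 training hearts, a spread that is small beside the sedentary range. Sptssa was at 24.5 CPM in training heart 1 and between 20.7 and 21.5 CPM in the other training hearts, and its call was lost in 6 of the 10 fits that left out 1 heart. The isoform-weighted transcript length of Rtn4rl2 was 1213 bases in training heart 1 and between 1263 and 1281 bases in the others. No explanation was tested for these values.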

How the results depend on the processing

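The log2 fold change of Rtn4r kept its direction under all 21 alternatives. For a gene chosen for its fall, with groups that do not overlap, this was set in advance and tests nothing. The stricter FDR among the alternatives cannot alter a fold change. Of the other members, none was called lower under any alternative. The count of members called higher (1, Lingo1) was 0 at an FDR below 0.05 and with the atrial score, 2 with the clock score (Lingo1 and Rtn4) and 0 to 2 when 1 heart was left out, being 2 without training heart 2 and 0 without training heart 3, sedentary heart 2 or sedentary heart 5. The count of pathway genes called higher (7) was 11 with library totals alone, which shifts the median of all genes by 0.053, 3 at an FDR below 0.05, 0 with the atrial score, and 2 to 9 when 1 heart was left out, being 2 without training heart 3 or 4, 3 without sedentary heart 2, 3 or 5 and 4 without sedentary heart 4. The count called lower (1) was 2 with DESeq2 and with the clock score, 0 with the atrial score, and 0 to 2 when 1 heart was left out, being 0 without training heart 4 and 2 without sedentary heart 5. Over all genes, library totals alone gave 1029 higher and 339 lower calls in place of 425 and 659. Members close to 0 changed sign: Rtn4rl1 to 0.036 with library totals, 0.0054 with RSEM counts and 0.061 with the clock score, Rtn2 to 0.040 with library totals and 0.036 with the atrial score, and Rtn3 to −0.0055 with the atrial score. With 1 heart left out, Rtn4rl1 ranged from −0.083 to 0.054, Rtn2 from −0.053 to 0.014 and Rtn3 from −0.0030 to 0.038. No member's transcript length was called under any alternative, and the number of neighbouring members apart in the sedentary order was 5, or 6 without sedentary heart 5. The causes were not tested.

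The mouse numbers showed no clear pairing of the hearts. Deviations of same-numbered hearts correlated at −0.11, 0.21, 0.11, 0.039 and 0.24, and 1 of the 5 numbers was its own best match. These 5 values are too few to settle whether the numbers pair the hearts. With the number as a replicate block, 2 members were called higher, Lingo1 and Ngfr (log2 fold change 0.88, FDR 0.0849, edgeR with Benjamini-Hochberg adjustment), and over all genes 468 were called higher and 669 lower. Depth limits the precision of low genes: counting error alone is 14.0% for Lingo1 at its lowest count, against 1.78% for Rtn3.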
